A study of Mus musculus with 4 samples.

Results

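The cytosolic ribosomal protein genes encode the protein parts of the ribosome that reads nuclear messenger RNA. They were taken from the deposited table as its protein-coding rows whose symbol is Rpl or Rps with a number, or is Rpsa, Rplp0, Rplp1 or Rplp2, with the Rps6k kinases left out. That gave 81 of 14157 genes, 49 of the large subunit and 32 of the small. The set was selected on KO against WT values: earlier results on these samples had shown its genes lower in KO, and within it members were chosen by symbol. The RNA-seq libraries were of esophageal tumours raised in C57BL/6 mice with the mutagen 4NQO (4-nitroquinoline 1-oxide). There were 2 libraries under the label S100A14 CKO, called KO here (replicates 1 and 8), and 2 from wild-type mice (WT, replicates 3 and 6). The strain and the carcinogen were the same for all 4 tumours. How and in which cells S100a14 was deleted, the age of the mice, and whether each library is a separate animal were not found in the labels, so errors measure the spread between these samples, which may be technical.

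The ribosome joins a small subunit, which reads the messenger RNA, to a large subunit, which forms peptide bonds. Cells make the ribosomal proteins in near-equal numbers, and unpaired copies are degraded. Their messenger RNAs begin with a terminal oligopyrimidine (TOP) tract, through which LARP1 and the kinase mTOR set their translation in growing tissue such as tumours.

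S100a14 itself had 0 and 1 reads in the KO libraries, against 463 and 347 reads in the WT libraries. The libraries held 11132019 to 16182109 reads, of which 1052423 to 2107060 fell on nuclear protein-coding genes. Ribosomal RNA, with that of mitochondria counted in, took 76.4% and 50.8% of reads in the KO libraries (replicates 1 and 8). In the WT libraries (replicates 3 and 6) it took 47.0% and 72.6%. KO replicate 8 stood apart, so values without it are given below. The median ribosomal protein gene had 722 and 383 reads in KO replicates 1 and 8, against 959 and 785 reads in WT replicates 3 and 6. Whether the counting split reads between these genes and their many processed pseudogenes was not stated in the labels, so the value of a single gene is uncertain. Pseudogene rows named after ribosomal proteins summed to scaled values of 43.1 and 14.7 in the KO libraries and 33.8 and 41.9 in the WT libraries.

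Ribosomal protein messenger RNA was lower in the KO tumours on the scale that the authors deposited. Since that contrast led to the choice of the set, the KO against WT values that follow are a description, and the gene-by-gene calls, each given with its share of all genes, support nothing about the set. The deposited scaled values of all 81 genes summed to 14175 and 9374.5 in KO replicates 1 and 8, against 17386 and 23552 in WT replicates 3 and 6. Both KO sums were below both WT sums, and the KO mean was 0.575 of the WT mean (11775 ± 3395 in KO and 20469 ± 4361 in WT, SD, n = 2 each). The other nuclear protein-coding genes fitted summed to 321720 and 259760 in the KO libraries, against 388590 and 385350 in the WT libraries. Both KO sums of those other genes were thus lower too. As a share of nuclear protein-coding reads, the members' KO mean was 0.765 of the WT mean. Of the 81 genes, 80 reached a value of 1 in 2 libraries and were fitted, and Rpl39l did not. The log2 fold change, KO over WT on the log2(value + 1) scale, had a median of −0.75 over the 80 genes and an interquartile range of −0.97 to −0.56. Over all 12304 genes fitted the median was −0.03. With quantile normalization the members' median was −0.48, against 0.02 over all genes fitted. By that normalization 43 of the 80 lay without overlap below WT, and the share over all genes was not computed. On the deposited scale 62 did, where 19.3% of all genes did.

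**Figure D1:**
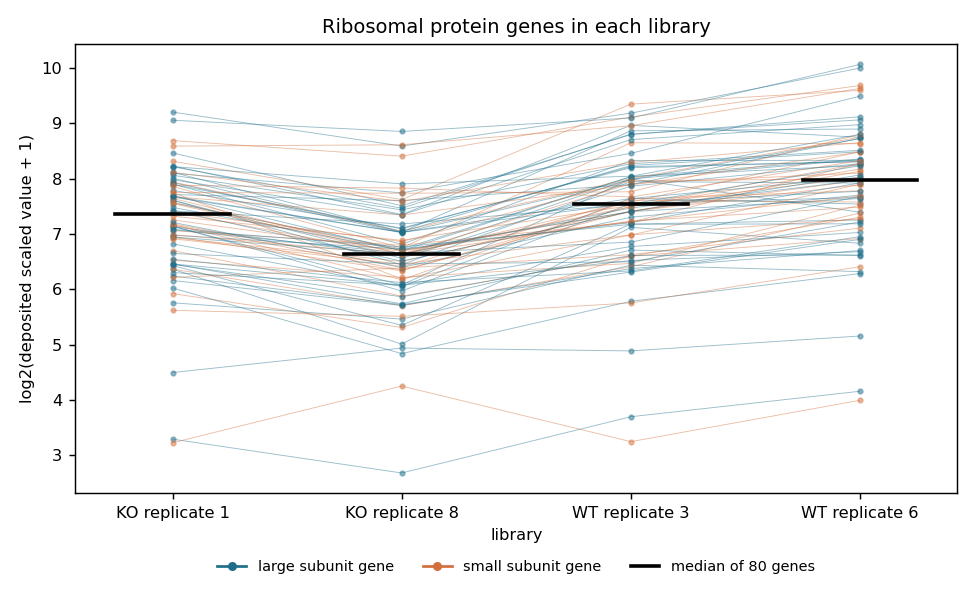
Each line joins 1 of 80 ribosomal protein genes across the 4 libraries (x axis); the y axis is log2(deposited scaled value + 1), colours give the subunit and black bars the median. KO replicate 8 has the lowest median and WT replicate 6 the highest, with KO replicate 1 and WT replicate 3 close together between them.

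Of the 80 fitted genes, 79 were lower in KO, where 52.5% of all genes fitted were. In 62 of the 80 both KO libraries lay below both WT libraries, where 19.3% of all genes did, and in 0 of the 80 did both KO libraries lie above. Nothing is read from these shares. Fitted one by one, 0 of the 80 passed limma's threshold of 0.05 on the adjusted p, where 0.00813% of all genes did. At an unadjusted p under 0.05 limma had 11 of the 80, where 5.25% of all genes fell under it. The quasi-likelihood test of edgeR on the recovered reads called 0 of the 80, where it called 0% of all genes, and had 2 at an unadjusted p under 0.05 (5.03% of all genes). DESeq2 called 0 of the 81, where it called 0.462% of all genes, and had 11 at an unadjusted p under 0.05 (4.78% of all genes). Without KO replicate 1 limma called 1 member, Rpl36 (adjusted p = 0.0489), where 4.14% of all genes were called; KO replicate 8 is then the lone KO library, assumed to vary like the WT pair. In the authors' deposited table, Rpl39l was the 1 member that had an adjusted p under 0.05 (0.0352), where 0.749% of all genes did. That value rested on a single library, since Rpl39l had 61 reads in WT replicate 3 and 0 in WT replicate 6 and both KO libraries.

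The size of the difference was unequal between the KO libraries. Against the WT mean, the median gene differed by −0.46 in KO replicate 1 and by −1.08 in KO replicate 8. KO replicate 8 was below KO replicate 1 for 76 of 80 genes. The WT pair differed too: WT replicate 6 was above WT replicate 3 for 71 of 80 genes, by a median of 0.39. The gap between KO replicate 1 and the WT mean was thus close in size to the gap inside the WT pair. Leaving out KO replicate 8 gave a median fold change of −0.46, and leaving out KO replicate 1 gave −1.08. Leaving out WT replicate 6 gave −0.50 and leaving out WT replicate 3 gave −0.97.

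**Figure D2:**
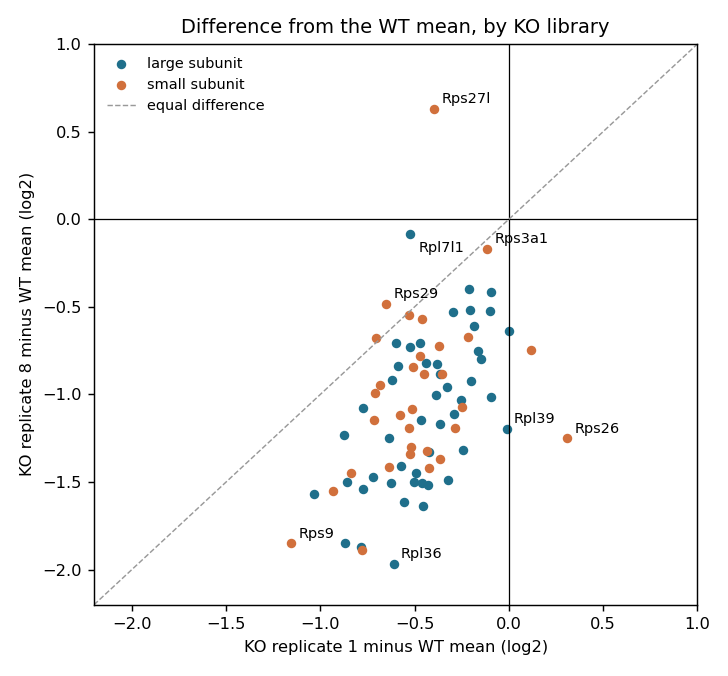
Each point is a ribosomal protein gene; the x axis is its log2 difference from the WT mean in KO replicate 1 and the y axis that in KO replicate 8, and the dashed line marks equal differences. Most points lie below the dashed line and left of 0, with Rps27l above 0 in KO replicate 8 and Rps26 right of 0 in KO replicate 1. Both axes share the WT mean.

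Rps9, a small subunit protein at the channel where messenger RNA enters, was the member with the lowest fold change. It had scaled values of 317 and 196 in KO replicates 1 and 8, against 649 and 771 in WT replicates 3 and 6 (log2 fold change −1.50, SE 0.46). The groups did not overlap, and KO replicate 1, the higher of the KO pair, was still well under WT replicate 3. Rps2, at the same channel, had 383 and 389.6 in the KO libraries and 495 and 789.8 in the WT libraries (−0.69, SE 0.46). Rps3, its neighbour there, had 203 and 161 in KO and 235 and 356 in WT (−0.67, SE 0.44). The 3 channel genes were lower in both KO libraries than in both WT libraries, as were 62 of the 80 fitted members and 19.3% of all genes.

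Rps18, a protein of the small subunit's head, had 231 and 106 in KO against 399.7 and 394.6 in WT (log2 fold change −1.34, SE 0.50). The WT pair was nearly level and KO replicate 8 was under KO replicate 1. Rps10, also of the head, had 123 and 79.6 in KO against 179.9 and 308 in WT (−1.24, SE 0.48). In Rps10 the WT pair stood apart from each other, with WT replicate 6 the higher. Rps6, the ribosomal protein that S6 kinases phosphorylate, had 276 and 191 in KO and 312 and 400.3 in WT (−0.62, SE 0.44). Rps19, which is mutated in some cases of the human anaemia of Diamond and Blackfan, had 142 and 80.4 in KO and 169 and 249 in WT (−0.93, SE 0.48). Rpsa, the laminin receptor precursor and a platform protein, had 411 and 338 in KO and 551 and 819 in WT (−0.85, SE 0.46). None of these 5 genes overlapped between the groups, and 62 of the 80 fitted members and 19.3% of all genes lay below WT likewise. Rps27a, made as a fusion to ubiquitin, had 198 and 98.4 in KO and 239 and 273 in WT (−0.87, SE 0.48).

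Of the large subunit, Rpl10, which joins the subunit late in its assembly, had the lowest fold change. It had 256 and 129.9 in KO against 464 and 475 in WT (log2 fold change −1.36, SE 0.49). KO replicate 8 was well under KO replicate 1, and both WT libraries were level. Rpl27 had 85.1 and 39.7 in KO against 144 and 151 in WT (−1.33, SE 0.49). Rpl18 had 139 and 96.1 in KO against 254 and 323 in WT (−1.30, SE 0.44). Rpl36 had 81.4 and 31.2 in KO against 138 and 113 in WT (−1.29, SE 0.54). In all 3, KO replicate 8 was the lowest library and no KO value reached a WT value. The groups lay apart in this way for 62 of the 80 fitted members and 19.3% of all genes. Rpl8, near the site where peptide bonds form, had 251 and 161 in KO against 416 and 501 in WT (−1.18, SE 0.45).

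The P stalk recruits the elongation factors. Its base, Rplp0, had 529.99 and 460.5 in KO against 545 and 1067 in WT (log2 fold change −0.63, SE 0.51). Its arms Rplp1 and Rplp2 had fold changes of −1.05 (SE 0.51) and −0.71 (SE 0.45). Rplp1 had 273 and 213 in KO and 349.7 and 717 in WT, and Rplp2 had 125 and 105 in KO and 146 and 241 in WT. In all 3 stalk genes WT replicate 6 stood well above the other 3 libraries, so the fold change leaned on that library. Rpl5 and Rpl11, which carry the ribosome's smallest RNA and bind the p53 regulator MDM2 when free, differed from each other. Rpl11 had 147 and 83.0 in KO and 157 and 207 in WT (−0.70, SE 0.47), without overlap. Rpl5 had 296 and 238 in KO and 263 and 444 in WT (−0.36, SE 0.47), and KO replicate 1 was above WT replicate 3.

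**Figure D3:**
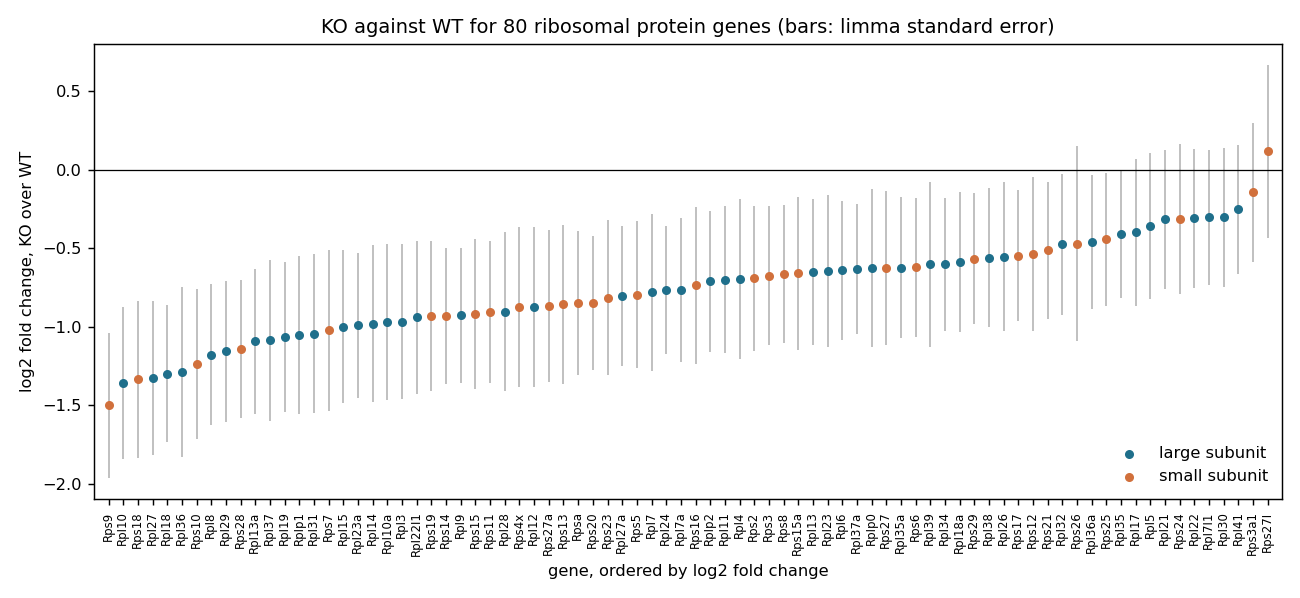
The y axis gives the log2 fold change of KO over WT for 80 ribosomal protein genes, in order along the x axis; bars are limma standard errors and colours the subunit. The values run from −1.50 for Rps9 to 0.12 for Rps27l, and the subunits are mixed along the whole order.

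At the other end of the order were genes whose groups overlapped or nearly met. Rps27l, a Rps27-like gene that p53 switches on, was the 1 member higher in KO, with 8.36 and 18.04 in KO and 8.49 and 14.9 in WT (log2 fold change 0.12, SE 0.55). Its sign turned without KO replicate 8 (−0.39) and without WT replicate 3 (−0.26). Rps3a1 had 234 and 226 in KO and 202 and 319.6 in WT (−0.14, SE 0.44), with both KO values inside the WT range. Its sign turned without WT replicate 6 (0.19) and with quantile normalization (0.17). Rpl41, a very short peptide rich in basic residues, had 135 and 108 in KO and 143 and 144 in WT (−0.25, SE 0.41). Rpl41 did not overlap, though KO replicate 1 came near the WT pair. Rpl30 had 99.2 and 86.8 in KO and 89.2 and 148 in WT (−0.30, SE 0.44). Rpl22, needed in mice for the development of alpha-beta T cells, had 92.1 and 68.5 in KO and 79.5 and 123 in WT (−0.31, SE 0.44). In Rpl30 and Rpl22 alike KO replicate 1 lay between the WT values. Rps26 had a wide spread inside the KO pair, with 214 and 71.9 in KO and 125 and 237 in WT; it was chosen for mention after its values were seen.

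The promoters of the 3 genes with the lowest and the 3 with the highest fold change, among the 61 of 81 members with an entry, are shown because these genes bound the range of the set. They come from RefSeq (build GRCm38.p6), each from 60 bases before the annotated start through its first 25 transcribed bases, with capitals marking CCGGAAG or its reverse complement CTTCCGG, the core bound by ETS factors such as GABPA. Rps9 is at chr7:3703981-3704065 (plus strand), Rpl10 at chrX:74270756-74270840 (plus), Rps18 at chr17:33955641-33955725 (minus), Rpl41 at chr10:128549144-128549228 (minus), Rps3a1 at chr3:86142644-86142728 (minus) and Rps27l at chr9:66946026-66946110 (plus).
Rps9: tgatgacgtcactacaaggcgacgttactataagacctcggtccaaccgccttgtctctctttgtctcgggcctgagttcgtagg
Rpl10: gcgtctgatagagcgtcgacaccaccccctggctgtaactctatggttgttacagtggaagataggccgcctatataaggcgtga
Rps18: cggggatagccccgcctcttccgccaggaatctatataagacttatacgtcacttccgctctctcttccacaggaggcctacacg
Rpl41: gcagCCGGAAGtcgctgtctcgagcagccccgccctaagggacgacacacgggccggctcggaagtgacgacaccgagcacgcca
Rps3a1: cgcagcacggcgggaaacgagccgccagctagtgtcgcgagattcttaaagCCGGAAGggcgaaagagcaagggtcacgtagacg
Rps27l: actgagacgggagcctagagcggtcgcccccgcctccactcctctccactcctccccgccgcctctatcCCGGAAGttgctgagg

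In the windows printed, the ETS core was present in Rpl41, Rps3a1 and Rps27l and in none of Rps9, Rpl10 and Rps18, though Rps18 held it further upstream. Over the full promoter entries of 300 bases, searched on both strands, 25 of 61 members (41.0%) held CCGGAAG, against 9.12% of all 27025 genes with an entry. The median log2 fold change was −0.67 in the 24 fitted members with the core and −0.77 in the 36 without it, and their interquartile ranges overlapped (−1.01 to −0.50 and −0.94 to −0.63). The letters CTCTTTC, a common form of the TOP tract, searched on the sense strand, were in 12 of 61 members (19.7%) and in 3.91% of all genes. The letters AAGATGG, the core bound by YY1, searched on both strands, were in 9 of 61 members (14.8%) and in 6.47% of all genes. The annotated starts may differ from those used in these tumours, and such matches describe the letters alone.

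Large and small subunit genes had nearly the same difference. The median log2 fold change was −0.74 over 48 large subunit genes and −0.77 over 32 small subunit genes, a difference of 0.03, against a spread of 0.095 between libraries of one group. Both KO libraries lay below both WT libraries for 37 of 48 large and 25 of 32 small subunit genes. Over all genes fitted, 19.3% did. KO replicate 1 gave medians of −0.45 and −0.51 for large and small, and KO replicate 8 gave −1.09 and −1.08. Large subunit genes took 61.5% and 59.3% of the reads on ribosomal protein genes in KO replicates 1 and 8, against 61.8% and 59.3% in WT replicates 3 and 6. KO replicate 1 was thus near WT replicate 3, and KO replicate 8 near WT replicate 6, so this share did not follow genotype. The subunits parted most inside the WT pair, where WT replicate 6 was above WT replicate 3 by a median of 0.58 over small and 0.27 over large subunit genes. No test over genes was made, since genes of a library are not replicates.

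**Figure D4:**
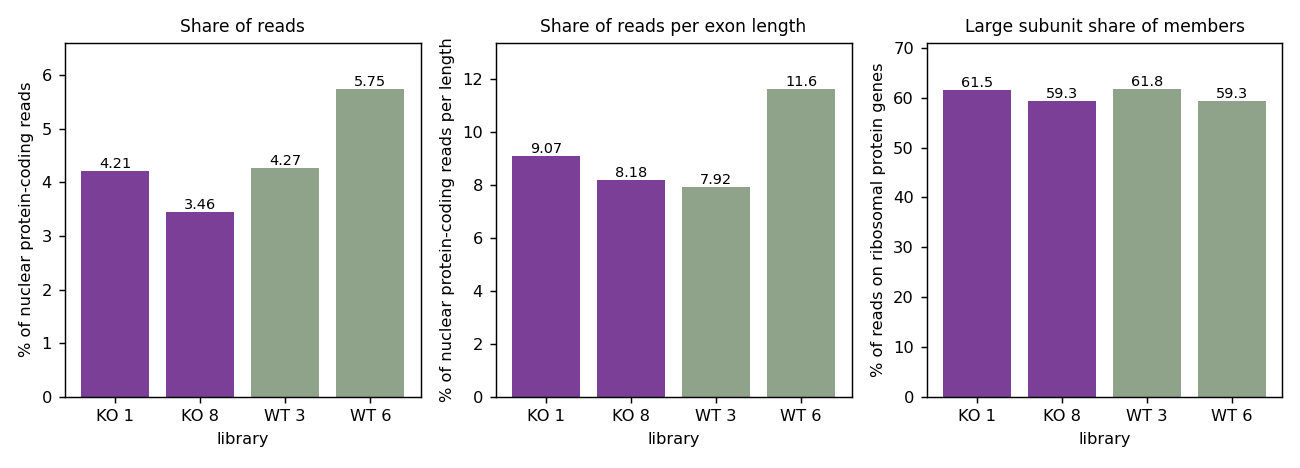
For each library (x axis), the left plot gives the percent of nuclear protein-coding reads on ribosomal protein genes, the middle plot the same after dividing reads by exon length, and the right plot the percent of ribosomal protein reads on the large subunit. On the left KO replicate 1 (4.21%) and WT replicate 3 (4.27%) are nearly level; in the middle both KO bars lie between the WT bars.

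A share of reads does not use the deposited scaling. Ribosomal protein genes took 4.21% and 3.46% of nuclear protein-coding reads in KO replicates 1 and 8, against 4.27% and 5.75% in WT replicates 3 and 6. The 95% Wilson intervals, which cover counting error only, were 4.18% to 4.24% and 3.42% to 3.49% in KO, and 4.25% to 4.30% and 5.71% to 5.79% in WT. The group means were 3.83% ± 0.534 in KO and 5.01% ± 1.04 in WT (SD, n = 2 each), so the difference of −1.18 points was about the size of the WT spread. Divided by exon length, the shares were 9.07% and 8.18% in KO against 7.92% and 11.6% in WT, and the groups overlapped. With Lars2 and the 10 most abundant genes of each library left out of the total, they were 4.93% and 3.77% in KO against 5.31% and 7.75% in WT. The KO libraries thus lay below both WT libraries under both totals of reads, and not after division by exon length.

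Per kilobase of exon, the levels of the set spanned a wide range, although its proteins are used in near-equal numbers. The median member had a value per kb of 87.4 and 53.4 in KO replicates 1 and 8, against 105 and 133 in WT replicates 3 and 6. Rplp1 was the highest at a mean of 778 per kb over the 4 libraries, followed by Rplp0 (392), Rpl19 (339), Rpl4 (320.02), Rps2 (281), Rpl23a (252), Rps3a1 (251) and Rpl8 (245). Exon length here joins all annotated exons of a gene, introns kept in minor transcripts included, so it lowers the value per kb of some members. Rpl19, Rpl4 and Rpl23a line the tunnel through which the new peptide leaves or its rim. Rpl19 had 299 and 162 in KO against 497 and 428 in WT (log2 fold change −1.06, SE 0.48). Rpl23a had 188 and 105 in KO against 261 and 301 in WT (−0.99, SE 0.46). Rpl4 had 587 and 383 in KO against 579 and 1019.5 in WT (−0.69, SE 0.51), so KO replicate 1 overlapped the WT pair.

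The order of the members by level was largely shared by the libraries. Across the 80 fitted members, library pairs had a Spearman rho of 0.824 to 0.927. The Pearson r of their log2 values was 0.860 to 0.960, against 0.769 to 0.915 over all 12304 genes fitted. These values describe genes of the same libraries and are no test. Within the set, fold change and exon length had a Spearman rho of −0.02, while over all 12281 fitted genes with a length it was 0.17. The members were short, with a median of 1806 exon bases against 4448 over all genes fitted. Other nuclear protein-coding genes with exon lengths in the members' interquartile range (1314 to 2691 bases, 1927 genes) had a median log2 fold change of −0.17. Of these 61.7% were lower in KO, and 27.2% lay below WT without overlap. Genes with a mean value in the members' interquartile range (270 other genes) had a median of −0.20, with 63.3% lower and 29.6% below WT without overlap. These shares were higher than the 52.5% and 19.3% over all genes fitted. The 81 genes lay on 19 chromosomes, with 14 of them on chromosome 7.

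A few members are L-type paralogs, whose symbol adds an L to that of a core protein, and these were the least abundant of the set. Rpl22l1 had 8.80 and 5.41 in KO against 11.97 and 16.84 in WT (log2 fold change −0.94, SE 0.49), without overlap. Set against Rpl22 in the same library, Rpl22l1 stood at 9.55% and 7.89% of the Rpl22 value in KO and 15.0% and 13.7% in WT. This ratio was lower in both KO libraries. It rested on few Rpl22l1 reads, 40 and 21 in KO and 62 and 53 in WT, and was not tested. Rps27l stood at 9.18% and 24.6% of Rps27 in KO and 9.71% and 8.17% in WT, with KO replicate 8 alone apart. Rpl7l1, the Rpl7-like gene, had 21.6 and 29.6 in KO and 28.6 and 34.6 in WT (−0.30, SE 0.43), with overlap. It stood at 7.81% and 22.7% of Rpl7 in KO and 9.52% and 9.70% in WT, again with KO replicate 8 apart. Rpl39l, expressed most in the mouse testis, had a value of 11.8 in WT replicate 3 and 0 in the other 3 libraries, where 3 reads would have given values of 0.660 (KO replicate 1), 0.773 (KO replicate 8) and 0.953 (WT replicate 6). That library alone set its value.

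Fau and Rack1, ribosomal proteins that the symbol rule leaves out, gave like values. Fau, a fusion of a ubiquitin-like protein to a small subunit protein, had 136 and 101 in KO against 219 and 215 in WT (log2 fold change −0.88, SE 0.42). Rack1, a scaffold on the small subunit, had 295 and 229 in KO and 395 and 587 in WT (−0.89, SE 0.45). In both genes the groups did not overlap, and 19.3% of all genes lay below WT likewise.

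Other genes of translation were less far from WT by their medians. Of 21 other genes whose transcripts carry a TOP tract, 17 were lower in KO, where 52.5% of all genes were. Of these, 10 were without overlap, where 19.3% of all genes were. The median log2 fold change of the 21 was −0.49, with KO replicates 1 and 8 at −0.15 and −0.87. The same shares of all genes stand beside the counts of the next lists. The furthest were Eef2, the translocation factor, with 1261 and 599 in KO and 2171 and 2514 in WT (−1.43, SE 0.55), Eef1g (−1.17, SE 0.44) and Eif3f (−1.14, SE 0.50). Npm1 and Hnrnpa1, also on that list, were at 0.18 and 0.26. Of 36 ribosome biogenesis genes 27 were lower and 9 higher (median −0.41), with KO replicates 1 and 8 at −0.31 and −0.43. The furthest were Rrs1 (−1.43, SE 0.44), Imp3 (−1.28, SE 0.50) and Rrp12 (−1.01, SE 0.42). Of the 78 mitochondrial ribosomal protein genes 56 were lower and 22 higher (median −0.17), with KO replicates 1 and 8 at −0.23 and −0.16. Mrpl33 (1.10, SE 0.52), Mrpl36 (−1.02, SE 0.51) and Mrps16 (−1.02, SE 0.49) were the furthest of those without overlap. Of 11 genes listed for the control of TOP translation, with Larp1, the mTOR pathway and Myc included, 7 were lower (median −0.28). The KO libraries differed in direction, with medians of 0.19 in KO replicate 1 and −0.37 in KO replicate 8. Rps6kb1, an S6 kinase gene, had 36.5 and 24.0 in KO and 20.7 and 19.4 in WT (0.54, SE 0.44), while the mTOR substrates Eif4ebp1 and Eif4ebp2 were at −0.42 (SE 0.43) and −0.32 (SE 0.42), all 3 without overlap. Limma called 0 of the 146 genes on these 4 lists, where it called 0.00813% of all genes. At an unadjusted p under 0.05 limma had 5 of them, where 5.25% of all genes fell under that threshold. EdgeR called 0 of 145, where it called 0% of all genes, and had 3 at an unadjusted p under 0.05 (5.03% of all genes). DESeq2 called 0 of 146, where it called 0.462% of all genes, and had 3 at that unadjusted p (4.78% of all genes). The differences between lists were not tested.

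**Figure D5:**
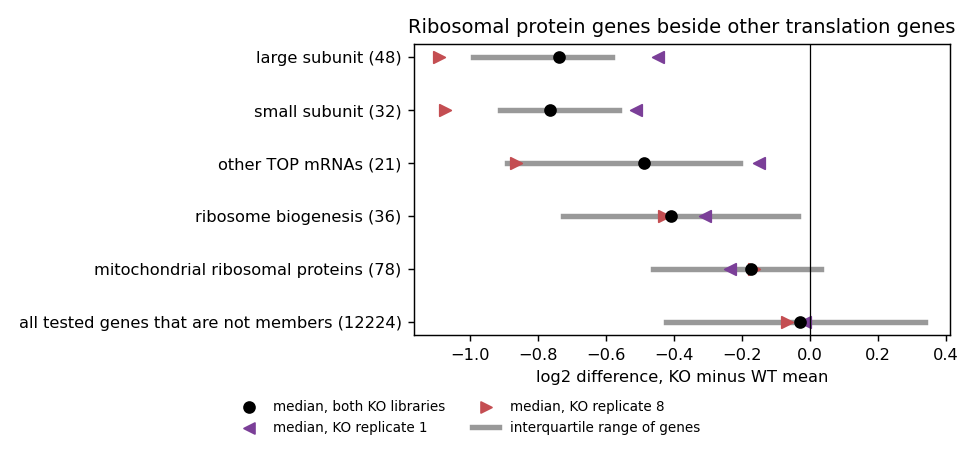
For each list (y axis, number of genes fitted in brackets) the x axis gives the log2 difference of KO from the WT mean: black dots are the medians over both KO libraries, triangles those of each KO library and grey bars the interquartile range. The medians are −0.74 and −0.77 for the subunits, −0.49 for other TOP genes, −0.41 for biogenesis, −0.17 for mitochondrial ribosomal proteins and −0.03 for all other genes.

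Cell type markers differed between the libraries as well. All 8 squamous epithelial markers, Krt5 and Trp63 among them, were detected in every library and summed to 27310 and 5227 in KO replicates 1 and 8, against 52998 and 34291 in WT replicates 3 and 6. Keratins made up most of these sums, and the groups overlapped for 4 of the 8. Krt5 had 8751 and 1057 in KO against 8370.4 and 10079 in WT, and Trp63 had 244 and 241 in KO against 235 and 407 in WT, so KO replicate 8 was not the lowest library for Trp63. The 5 skeletal muscle markers listed summed to 18.3 and 276 in KO against 4.05 and 8.90 in WT. The 5 fibroblast markers summed to 94.1 and 842 in KO against 107 and 237 in WT. KO replicate 8 was thus apart from the other 3 libraries, the lowest in the squamous sum and the highest in the muscle and fibroblast sums. The 7 macrophage markers summed to 86.0 and 153 in KO against 33.8 and 38.1 in WT. Jchain, Igkc and Ighm, markers of B and plasma cells, were at 0 in both WT libraries and at 7.92 to 36.1 in the KO libraries. Both immune lists were thus higher in both KO libraries than in both WT libraries. The 4 smooth muscle markers summed to 126 and 53.1 in KO against 16.6 and 73.7 in WT. Acta2 made up most of that sum in KO replicate 1 (107) and WT replicate 6 (66.7), and its groups overlapped. In the other 3, both KO libraries lay above both WT libraries, where 14.5% of all genes did. The 4 endothelial markers summed to 13.9 and 17.8 in KO against 20.5 and 29.2 in WT. The 4 proliferation markers summed to 472 and 468 in KO against 383 and 238 in WT. Mki67 made up most of these sums (318 and 311 in KO, 224 and 147 in WT). It was the 1 of the 4 without overlap, and Cdk1 had a log2 fold change of 0.01. What part the marker lists had in the ribosomal protein values was not tested. In whole tumours, fewer cells of a type and less RNA per cell cannot be told apart.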

How the data were processed

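Per the labels' protocols, Trizol was used for RNA extraction from the 4 tumours and an Illumina TruSeq RNA kit for the libraries. The authors deposited 1 table with scaled read signal in a column per library. Every value in a column was a whole multiple of 1 step, so whole reads were recovered for 100% of values (tolerance 0.001), and 1 read was worth 0.220, 0.258, 0.193 and 0.318 in KO replicates 1 and 8 and WT replicates 3 and 6. The submitters' processing notes name DESeq and genome build mm9. The aligner, the counter and its handling of multiply mapped reads were not stated in the labels. The authors' log2 fold change and adjusted p-value columns, per the file headers, were used where their deposited table is cited.

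Values were fitted as log2(value + 1) with limma 3.58.1 (trended prior, R 4.3.3, genotype as the sole term, two-sided, Benjamini-Hochberg over all genes fitted, threshold 0.05), for the 12304 genes that reached 1 in 2 or more libraries. This scale understates fold changes of low genes. No permutation test was used, since 2 libraries against 2 cannot go below p = 0.333. Alternatives were quantile normalization, TMM factors from nuclear protein-coding genes with and without the members, pseudocount 0.1, no filter, a value of at least 5, no variance trend, edgeR 4.0.16 and DESeq2 1.42.0 on the recovered reads, and each library left out. The fits were tested on simulated data. Exon lengths joined the exons of GENCODE M21, and promoters came from RefSeq, with the first listed start of each gene. Intervals cover counting error only, since PCR duplicates cannot be told from separate molecules.

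The members, lists and tests were chosen with earlier results of these data known. Named members were the 8 lowest and 6 highest by fold change, the 8 highest per kb, the L-type paralogs, Rpsa, the P stalk, Rpl5, Rpl11, Rps6, Rps27a, Rps19 and any not fitted. Of each list, the 3 genes with the largest absolute fold change among those whose groups did not overlap were named, and a few others were named beside them after their values were seen. A gene withheld for evaluation is not reported here.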

Additional observations from a re-analysis of the deposited data

How the results depend on the processing

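The members' median log2 fold change stayed below 0 in every alternative run, from −0.77 to −0.48 over scalings, filters and tools and from −1.08 to −0.46 with a library left out. The number lower in KO stayed at 75 to 80, and the number without overlap at 43 (quantile normalization) to 62 with all libraries in. On the deposited scale 52.5% of all genes were lower and 19.3% lay without overlap below WT. These shares over all genes were not computed for the alternative runs. The large minus small subunit difference stayed between −0.04 and 0.06 with all libraries in, and ran from −0.11 to 0.094 with a library left out, so its sign was not settled. The read share differed by −2.18 points without Lars2 and the 10 most abundant genes, and by −1.91 to −0.44 points with a library left out. Limma called 1 gene over all genes; a pseudocount of 0.1 and edgeR's quasi-likelihood test gave 0, no filter and a value of at least 5 gave 2 each, DESeq2 gave 54, and leaving out a library gave 0 to 510, the highest without KO replicate 1. Of 28 named members, 5 turned sign in some alternative: Rps27l, Rps3a1, Rpl41, Rpl30 and Rpl5. The cause of these changes was not tested. No paired analysis was possible because the groups share no replicate number. With 2 libraries per group and 1052423 to 2107060 nuclear protein-coding reads, differences of the size seen here did not pass a test gene by gene.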
